A study of Mus musculus with 11 samples.

Results

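The interferon regulatory factor (IRF) family was examined in mouse macrophages cultured with or without the secreted matrix protein CYR61, also called CCN1. The family was taken as the 8 genes Irf1, Irf2, Irf3, Irf4, Irf5, Irf7, Irf8 and Irf9, listed by name and found by symbol among the 55487 gene IDs of the deposited count table. All 8 were present and all 8 passed the filter on low counts, which left 15135 genes. Marrow cells from the leg bones were turned into macrophages in culture, giving what are called bone marrow-derived macrophages. The mice were C57BL/6J and 2 to 5 months old. The 4 CYR61 libraries came from macrophages given 0.5 µg/ml of the recombinant protein for 24 h, and the 7 control libraries from macrophages given none. Both groups were kept in medium with CMG-conditioned medium added. Whether a vehicle was added to control cells is not stated in the labels, nor is whether each library is from its own mouse or culture. The p-values therefore reflect only the spread among the libraries, and part or all of it may be technical.

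IRF proteins share an N-terminal DNA-binding domain marked by conserved tryptophans, which recognises the interferon-stimulated response element (ISRE) and related sites. IRF3 and IRF7 are latent in the cytoplasm, become phosphorylated when sensors detect viral nucleic acid, and switch on interferon genes. Signalling from the type I interferon receptor then forms ISGF3, a complex that holds STAT2 and IRF9 and binds the ISRE of interferon-stimulated genes, Irf7 among them. IRF1 is induced by interferon-gamma, and IRF2 binds the same sites and antagonises it. IRF8 and IRF4 are close relatives that bind with PU.1, IRF8 being a factor of the macrophage lineage and IRF4 one of lymphocytes and alternatively activated macrophages. IRF5 carries Toll-like receptor signals to inflammatory cytokine genes. None of this background was measured here.

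In CYR61-treated macrophages 3 of the 8 family members rose and 0 fell. Irf7 rose 1.59-fold, Irf1 rose 1.19-fold and Irf9 rose 1.11-fold, while Irf2, Irf3, Irf4, Irf5 and Irf8 did not pass the test. Over all genes tested, 7.96% passed in either direction and 5.33% passed as higher. The members were chosen with earlier results of these data known. DESeq2 and limma-voom also called 3 members higher and 0 lower, and no member was lower at an unadjusted p under 0.05 by edgeR. The median log2 fold change was 0.0090 over the 8 members and -0.0076 over all genes tested. The test was edgeR's quasi-likelihood test on the authors' estimated counts, with p-values adjusted (Benjamini-Hochberg) across the 15135 genes and called below 0.05. Values are CPM scaled by TMM factors unless said otherwise, and errors are SD over 4 CYR61 and 7 control libraries.

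The libraries held 17390272 to 20760322 counts in CYR61 and 14912123 to 21047654 counts in control. All 8 macrophage markers were abundant, with a summed level of 24836 to 27167 CPM in CYR61 libraries and 22468 to 23827 CPM in control libraries, and 6 of the 8 rose. Over all genes tested, 5.33% were called higher. Plasmacytoid dendritic cells, known for high Irf7 and Irf8, left 1.86 to 2.37 CPM over 6 markers in CYR61 and 1.58 to 3.35 CPM in control, with Ly6d at 0 in every library. The 5 markers of type 1 conventional dendritic cells summed to 2.16 to 2.88 CPM in CYR61 and 2.34 to 3.22 CPM in control. The 7 B and plasma cell markers, from cells known for Irf4, summed to 0.74 to 0.998 CPM in CYR61 and 0.656 to 1.003 CPM in control, with Pax5 and Mzb1 among those at 0. T and NK cell markers (6, with Cd3e, Cd3g and Ncr1 at 0), mast cell and basophil markers (4, with Fcer1a and Ms4a2 at 0) and fibroblast markers (5) each summed to at most 1.32 CPM in any library. No marker of these lists was expressed enough to be tested. Only 1 plasmacytoid dendritic, 3 type 1 conventional dendritic and 1 B or plasma cell marker were tested, and none passed. Of 7 neutrophil markers, with Ly6g at 0, S100a8 was the 1 tested and it rose, with a list sum of 1.61 to 2.12 CPM in CYR61 and 0.785 to 1.39 CPM in control. The part of other cells in the results was not tested, and in bulk RNA fewer cells of a type and less RNA per cell cannot be told apart. Scaling bears on direction: 66.9% of called genes were higher with TMM, against 36.1% with library size as the only scaling (529 higher, 938 lower).

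**Figure D1:**
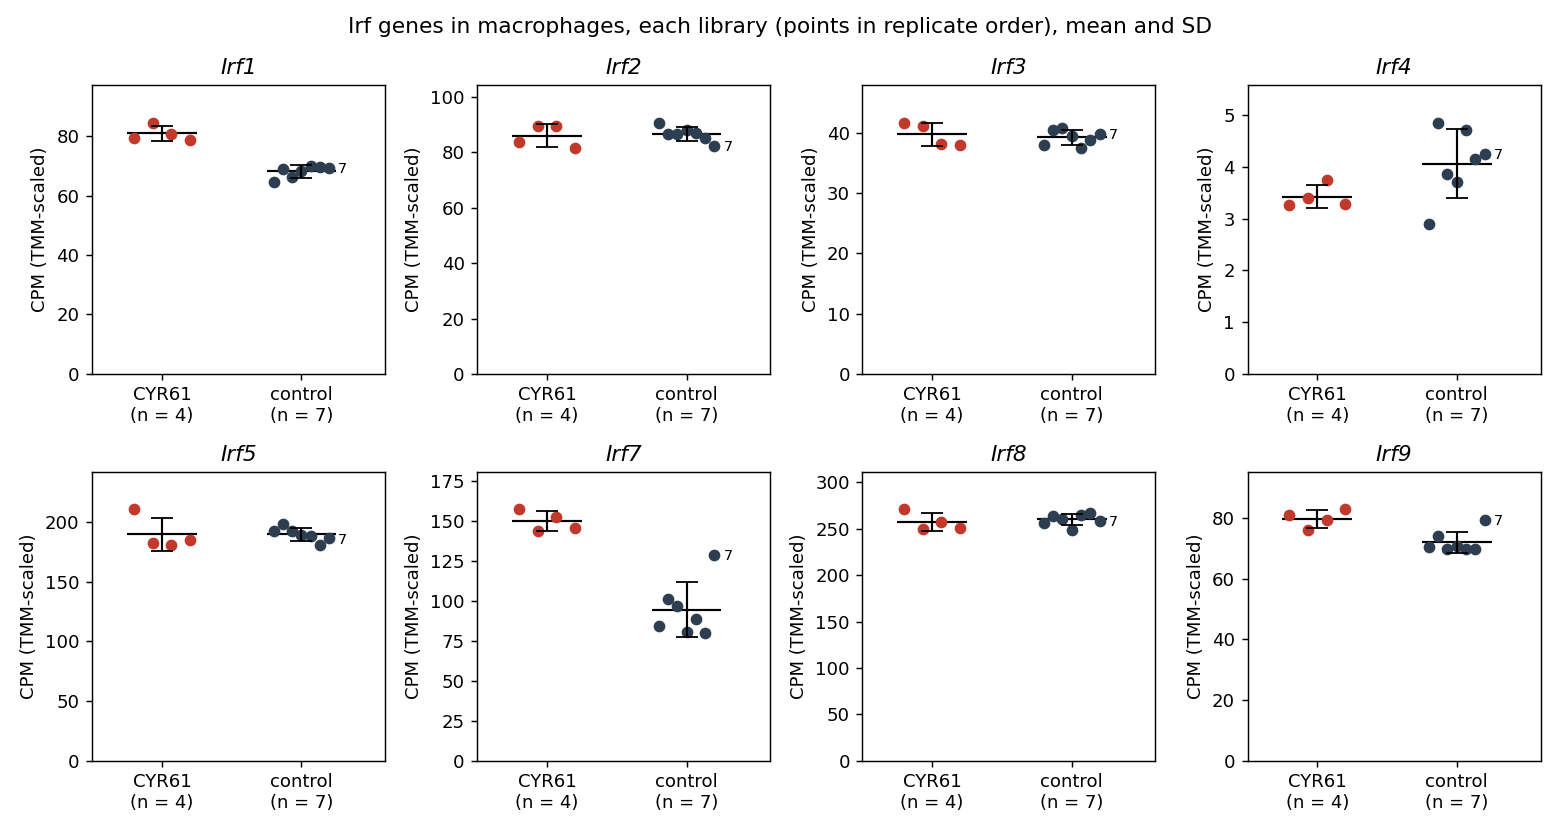
CPM of each family member in every library, CYR61 (n = 4) left of control (n = 7), with the y axis starting at 0, bars showing mean and SD, points in replicate order and control replicate 7 marked. Irf1 and Irf7 have every CYR61 library above every control library, as do 4.65% of all genes tested. Irf7 in control replicate 7 (129 CPM) lies above the other controls.

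Promoter windows of the members that rose, and of the members that did not pass but hold a match to the motifs below, are shown so that the letters around their start sites can be read beside the values. The windows are RefSeq sequences of GRCm38.p6, from 250 bases before to 50 bases after a gene's start, and all 8 members matched with 11 windows, since Irf1, Irf8 and Irf9 have 2 each. For these 3 genes the window with the lower coordinates is given. Capitals mark matches on either strand to the core of the ISRE, GAAA followed by any 2 bases and GAAA again, or to the gamma-activated site of interferon-gamma-responsive genes, TTCNNNGAA, which reads the same on both strands. The motifs were chosen after the members' values were known.
Irf7, chr7:141266375-141266674, minus strand: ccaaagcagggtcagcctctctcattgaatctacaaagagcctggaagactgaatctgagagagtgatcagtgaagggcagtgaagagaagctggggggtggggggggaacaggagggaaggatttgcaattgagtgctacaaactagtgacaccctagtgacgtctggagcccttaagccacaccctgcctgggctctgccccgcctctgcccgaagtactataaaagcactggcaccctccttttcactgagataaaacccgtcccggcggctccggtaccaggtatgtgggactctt
Irf1, chr11:53769764-53770063, plus strand: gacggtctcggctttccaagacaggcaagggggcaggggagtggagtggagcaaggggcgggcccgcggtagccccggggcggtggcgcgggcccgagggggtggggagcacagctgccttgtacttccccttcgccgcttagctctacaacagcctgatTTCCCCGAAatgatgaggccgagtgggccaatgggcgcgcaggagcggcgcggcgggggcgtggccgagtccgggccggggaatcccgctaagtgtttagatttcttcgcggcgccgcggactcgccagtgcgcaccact
Irf9, chr14:55603735-55604034, plus strand: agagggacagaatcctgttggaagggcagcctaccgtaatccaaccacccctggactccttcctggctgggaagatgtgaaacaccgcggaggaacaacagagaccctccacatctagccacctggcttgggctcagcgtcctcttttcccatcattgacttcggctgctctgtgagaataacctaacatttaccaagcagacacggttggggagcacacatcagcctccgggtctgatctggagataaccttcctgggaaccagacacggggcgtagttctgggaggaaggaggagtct
Irf2, chr8:46739495-46739794, plus strand: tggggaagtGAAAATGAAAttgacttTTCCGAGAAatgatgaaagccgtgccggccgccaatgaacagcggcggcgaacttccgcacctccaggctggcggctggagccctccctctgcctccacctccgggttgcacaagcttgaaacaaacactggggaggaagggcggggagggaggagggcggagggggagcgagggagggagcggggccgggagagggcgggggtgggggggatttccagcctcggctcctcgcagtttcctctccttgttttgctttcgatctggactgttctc
Irf8, chr8:120736108-120736407, plus strand: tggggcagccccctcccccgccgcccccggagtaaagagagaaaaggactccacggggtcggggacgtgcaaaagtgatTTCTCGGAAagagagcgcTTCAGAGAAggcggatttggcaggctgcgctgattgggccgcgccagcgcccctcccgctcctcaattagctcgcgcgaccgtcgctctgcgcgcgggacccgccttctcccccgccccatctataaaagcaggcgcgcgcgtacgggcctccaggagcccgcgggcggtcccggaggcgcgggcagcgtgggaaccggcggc
The window of Irf1 holds 1 gamma-activated site motif that begins at position -90 from the gene's start. That of Irf2 holds 1 ISRE core at position -241 and 1 gamma-activated site motif at -224, and that of Irf8 holds 2 gamma-activated site motifs at positions -171 and -153. The matches do not overlap each other. Over all 32851 RefSeq windows, 3.44% hold the ISRE core and 8.30% the gamma-activated site motif, against 1 and 3 of the 11 windows of the family. In the windows of Irf7 and Irf9 shown, as in those of Irf3, Irf4 and Irf5, these letters are not found, and a match or its lack says nothing here about binding.

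Irf7, which encodes the interferon-inducible regulator of interferon genes, had the largest change of the family. Its level was 157, 144, 153 and 146 CPM in CYR61 replicates 1 to 4, against a lowest of 80.2, a median of 88.9 and a highest of 129 CPM in the controls. Every CYR61 library lay above every control library, a separation found in 4.65% of all genes tested. The means were 150 ± 6.28 CPM in CYR61 and 94.5 ± 17.2 CPM in control, a log2 fold change of 0.66 with a standard error of 0.094 (edgeR, Benjamini-Hochberg adjusted p = 0.000171). Of the 806 genes called higher, 101 had a larger fold than Irf7, and the median fold among them was 1.18.

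The highest control value of Irf7 was that of control replicate 7, which stood 27.9 CPM above the next control and 14.9 CPM below the lowest CYR61 library. The other 6 controls averaged 88.7 ± 8.76 CPM. Without control replicate 7 the log2 fold change of Irf7 was 0.76 (edgeR, Benjamini-Hochberg adjusted p = 3.35e-07), and over all 20 alternatives it ran from 0.62 to 0.77 with adjusted p from 9.27e-09 to 0.000944. Irf3, the constitutive partner of Irf7 in the induction of interferon genes, had 41.7, 41.2, 38.2 and 38.1 CPM in CYR61 replicates 1 to 4, against 37.5, 39.5 and 40.8 CPM as the lowest, median and highest control. Its groups overlapped, with a log2 fold change of 0.018 and a 95% interval of -0.059 to 0.096 (edgeR, Benjamini-Hochberg adjusted p = 0.853). That interval leaves room for a change of Irf3 by a factor of 0.96 to 1.07. Bcl2l12 overlaps Irf3 by 1065 bases on the opposite strand in GENCODE M21. It was at 4.93 and 5.37 CPM in CYR61 and control (edgeR, Benjamini-Hochberg adjusted p = 0.604).

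Irf1, the interferon-gamma-inducible activator, had 79.4, 84.6, 80.8 and 78.9 CPM in CYR61 replicates 1 to 4, against 64.5, 69.0 and 70.0 CPM as the lowest, median and highest control. Every CYR61 library lay above every control library, as in 4.65% of all genes tested. The gap of the lowest CYR61 library to control replicate 7 was 9.53 CPM. The means were 81.0 ± 2.57 CPM in CYR61 and 68.2 ± 2.05 CPM in control, a log2 fold change of 0.25 with a standard error of 0.032 (edgeR, Benjamini-Hochberg adjusted p = 6.53e-05). Irf1 passed under all 20 alternatives, with log2 fold changes of 0.20 to 0.27. Its counts were fractional in all 11 libraries, and in GENCODE M21 the gene Gm17334 overlaps it by 907 bases on the opposite strand. Gm17334 was counted at 12.6 and 11.7 CPM in CYR61 and control and did not pass (edgeR, Benjamini-Hochberg adjusted p = 0.469). The labels do not say whether the counting used strand, so reads of such pairs cannot be told apart.

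Irf2, the antagonist at IRF1 sites, had 83.6, 89.5, 89.6 and 81.6 CPM in CYR61 replicates 1 to 4, against 82.4, 86.7 and 90.8 CPM as the lowest, median and highest control. The groups overlapped, and the log2 fold change of -0.0093 had a 95% interval of -0.076 to 0.058 (edgeR, Benjamini-Hochberg adjusted p = 0.917). Irf9, the DNA-binding subunit of ISGF3, had 80.9, 76.0, 79.5 and 82.9 CPM in CYR61 replicates 1 to 4, against 69.7, 70.4 and 79.4 CPM as the lowest, median and highest control. Its highest control was again replicate 7, which lay above CYR61 replicate 2. The other 6 controls averaged 70.8 ± 1.67 CPM and lay below every CYR61 library. The means of Irf9 were 79.8 ± 2.92 CPM in CYR61 and 72.0 ± 3.59 CPM in control, a log2 fold change of 0.15 with a standard error of 0.039 (edgeR, Benjamini-Hochberg adjusted p = 0.0239). Without control replicate 7 the adjusted p of Irf9 was 0.00219. Its call was lost with scaling by library size alone (log2 fold change 0.10, edgeR adjusted p = 0.0985), without CYR61 replicate 1, 3 or 4 (adjusted p = 0.0511, 0.0581 and 0.086) and without control replicate 3 or 5 (adjusted p = 0.0514 and 0.0516). Rnf31, which shares 123 bases with Irf9 on the same strand in GENCODE M21, was at 62.9 and 58.4 CPM in CYR61 and control (edgeR, Benjamini-Hochberg adjusted p = 0.145).

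**Figure D2:**
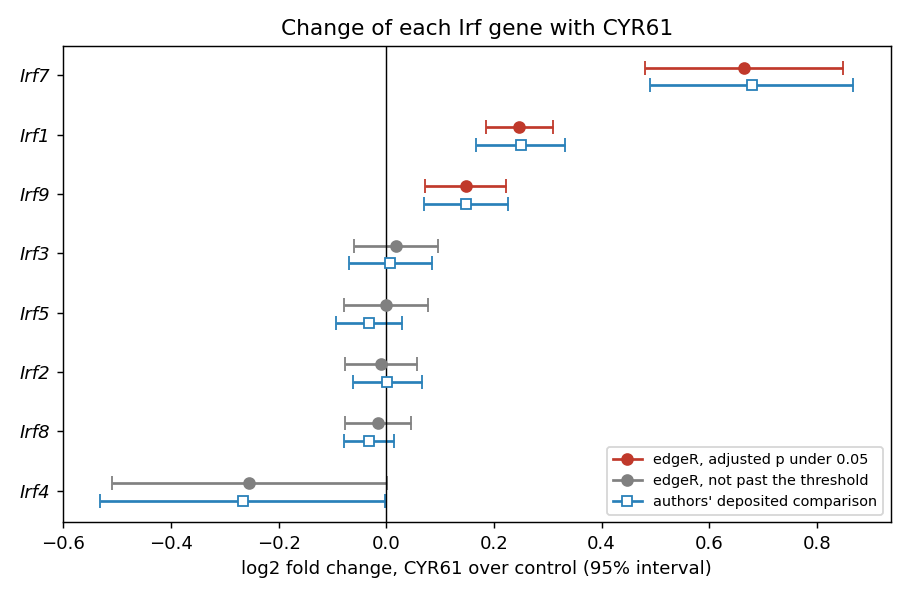
Log2 fold change of each member, CYR61 over control, with 95% intervals, from edgeR on the estimated counts (circles, red where the adjusted p is under 0.05) and from the authors' deposited comparison (open squares). Irf7, Irf1 and Irf9 lie right of 0 in both, Irf4 has the widest edgeR interval, and the 5 members that did not pass have edgeR intervals across 0.

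Irf8, the lineage factor, was the member with the most reads. It had 271, 250.1, 257 and 251 CPM in CYR61 replicates 1 to 4, against 249, 261 and 267 CPM as the lowest, median and highest control. The groups overlapped, with a log2 fold change of -0.016 and a 95% interval of -0.077 to 0.045 (edgeR, Benjamini-Hochberg adjusted p = 0.833). Its spread was the smallest of the family in control libraries, with a coefficient of variation of 2.39%. The gene Gm20388, which overlaps Irf8 by 20337 bases on the same strand in GENCODE M21, had a mean of 0 CPM in CYR61 and 0.719 CPM in control. It did not pass the filter on low counts, so this difference was not tested.

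Irf4, the close relative of Irf8, was the rarest member, with 44 to 92 counts in a library. It had 3.27, 3.40, 3.76 and 3.28 CPM in CYR61 replicates 1 to 4, against 2.89, 4.16 and 4.86 CPM as the lowest, median and highest control. The groups overlapped, since control replicate 1 was the lowest of all 11 libraries. The log2 fold change of -0.25 had an approximate 95% interval of -0.51 to 0.0011 and did not pass (edgeR, unadjusted p = 0.0675, Benjamini-Hochberg adjusted p = 0.289). In the authors' deposited table Irf4 had a log2 fold change of -0.266, with an interval of -0.531 to -0.00163 and an adjusted p of 0.196. Irf5, the regulator of inflammatory cytokine genes, had 211, 182, 181 and 185 CPM in CYR61 replicates 1 to 4, against 181, 189.6 and 199 CPM as the lowest, median and highest control. CYR61 replicate 1 was the highest of all 11 libraries and the other 3 CYR61 libraries lay among the lower controls. The log2 fold change of -0.00031 had a 95% interval of -0.079 to 0.078 (edgeR, Benjamini-Hochberg adjusted p = 0.998), and without CYR61 replicate 1 it was -0.053. Irf5 overlaps Tnpo3 on the opposite strand by 1045 bases in GENCODE M21, and Irf5 counts were fractional in all 11 libraries. Tnpo3 was at 74.9 and 73.0 CPM in CYR61 and control (edgeR, Benjamini-Hochberg adjusted p = 0.594). In the authors' deposited table the log2 fold changes were 0.679 for Irf7, 0.25 for Irf1 and 0.148 for Irf9, with adjusted p of 5.72e-06, 6.65e-05 and 0.00867.

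Levels of different genes were compared per kilobase of merged GENCODE M21 exons. In control libraries the order from high to low was Irf5, Irf8, Irf7, Irf1, Irf9, Irf2, Irf3 and Irf4. Irf5 stood at 65.4 ± 4.83 CPM per kilobase in CYR61 and 65.4 ± 1.88 in control, and Irf8 at 36.5 ± 1.37 in CYR61 and 36.9 ± 0.88 in control. Irf7 stood at 39.7 ± 1.66 CPM per kilobase in CYR61 and 25.0 ± 4.57 in control, so with this length its mean was above that of Irf8 in CYR61 and below it in control. With the other lengths Irf7 was below Irf8 in CYR61 too, at 46.3 for Irf7 and 74.2 for Irf8 with the longest transcript and 184.5 for Irf7 and 200.4 for Irf8 with the median transcript. Irf2 and Irf3, at 11.6 ± 0.553 and 11.6 ± 0.567 in CYR61 and 11.7 ± 0.348 and 11.4 ± 0.365 in control, were the only neighbours whose control ranges overlapped. Irf4 was at 0.699 ± 0.0466 CPM per kilobase in CYR61 and 0.829 ± 0.136 in control. The order in control depended on the length used: 3 of 8 members kept their rank with the longest transcript and 1 with the median transcript. In control libraries Irf5 and Irf8 took the first places and Irf4 the last with all 3 lengths. Summed over the 8 members, the family stood at 887 ± 28.2 CPM in CYR61 and 815 ± 22.6 CPM in control, and without Irf7 at 737 ± 22.6 CPM in CYR61 and 720.3 ± 9.08 CPM in control.

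**Figure D3:**
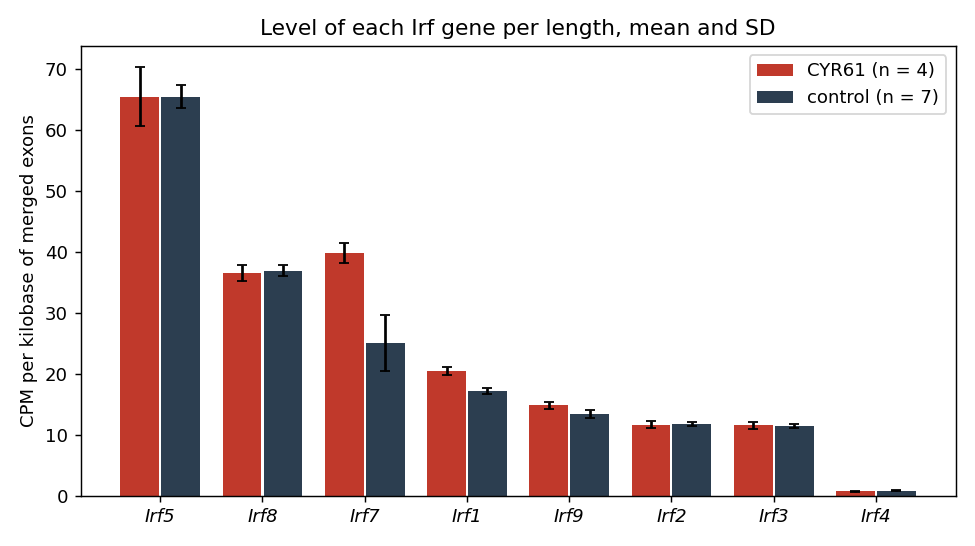
CPM per kilobase of merged exons for each member, mean and SD, CYR61 (red, n = 4) left of control (dark, n = 7), ordered by the control mean. Irf5 is highest, Irf7 in CYR61 (39.7) is above Irf8 with this length but not with the longest (46.3 against 74.2) or median transcript (184.5 against 200.4), and Irf4 is under 1.

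Ratios of counts within a library do not depend on how libraries are scaled. For 4 pairs of members the log2 ratio was compared between groups by a two-sided exact permutation test over 330 splits, whose smallest possible p is 0.00303. The count ratio of Irf1 to its antagonist Irf2 was 0.95, 0.946, 0.902 and 0.968 in CYR61 replicates 1 to 4, against 0.71 to 0.843 in control. No control library reached the lowest CYR61 library, and the log2 ratio was 0.26 higher with CYR61 (exact permutation p = 0.00303, adjusted over the 4 pairs p = 0.00606). The ratio of Irf7 to Irf3 was 3.77, 3.49, 4.01 and 3.82 in CYR61 replicates 1 to 4, against 2.04 to 3.24 in control, the highest being control replicate 7. It was 1.59-fold higher with CYR61 (exact permutation p = 0.00303, adjusted over the 4 pairs p = 0.00606). Irf2 and Irf3 had log2 fold changes of -0.0093 and 0.018, so these 2 ratios largely restate the changes of Irf1 and Irf7. The ratio of Irf8 to Irf4 was 68.0 to 82.1 in CYR61 and 54.1 to 87.6 in control, with overlapping groups (exact permutation p = 0.115, adjusted over the 4 pairs p = 0.145). That of Irf5 to Irf4 was 47.9 to 63.9 in CYR61 and 39.8 to 65.8 in control (exact permutation p = 0.145, adjusted over the 4 pairs p = 0.145). Control replicate 1, the library with the lowest Irf4, held the highest ratio in both of these pairs. Without that library the log2 differences were 0.29 for Irf8 to Irf4 and 0.31 for Irf5 to Irf4, and both passed (exact permutation, adjusted p = 0.0127 and 0.0190 over the 4 pairs). This was the only 1 of 13 alternatives in which either passed. The 2 ratios share Irf4, which did not pass by itself without that library (edgeR, Benjamini-Hochberg adjusted p = 0.115).

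**Figure D4:**
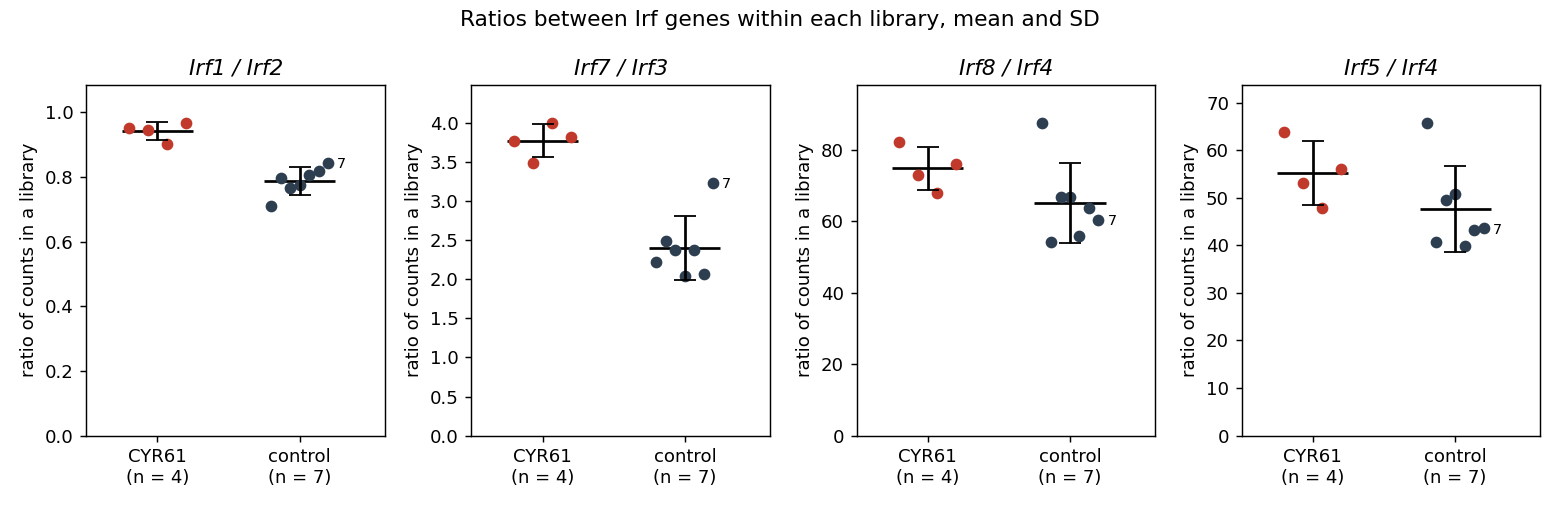
Ratio of counts of 2 members within each library, CYR61 (n = 4) left of control (n = 7), y axes from 0, mean and SD as bars, control replicate 7 marked. Irf1 over Irf2 and Irf7 over Irf3 do not overlap between groups, while both ratios to Irf4 overlap, with control replicate 1 (the leftmost control point) the highest.

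The genes whose pattern over the 11 libraries was most like that of Irf7 were Gbp3, Fcgr1 and Isg15. Likeness was the root mean square difference between log2 CPM values centred on their mean, computed against 8370 protein-coding genes of at least 10 CPM, and was 0.11 for Gbp3, 0.11 for Fcgr1 and 0.12 for Isg15, while the values of Irf7 themselves spread by 0.38. No p is attached, since the libraries are shared and the group difference enters the measure. Gbp3, an interferon-inducible GTPase, was at 14.9 ± 0.946 CPM in CYR61 and 8.81 ± 1.01 CPM in control, with 10.99 CPM in control replicate 7. Fcgr1, the high-affinity immunoglobulin G receptor, was at 164 ± 7.41 CPM in CYR61 and 101 ± 9.13 CPM in control, with 118 CPM in control replicate 7. Isg15, a ubiquitin-like modifier, was at 23.3 ± 3.16 CPM in CYR61 and 15.4 ± 2.77 CPM in control, with 19.1 CPM in control replicate 7. In all 3 genes control replicate 7 was the highest control. The genes were chosen for likeness to Irf7 over these same libraries, so that match is not separate evidence. Gbp3 belongs to a family of similar genes, so its counts are less certain.

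**Figure D5:**
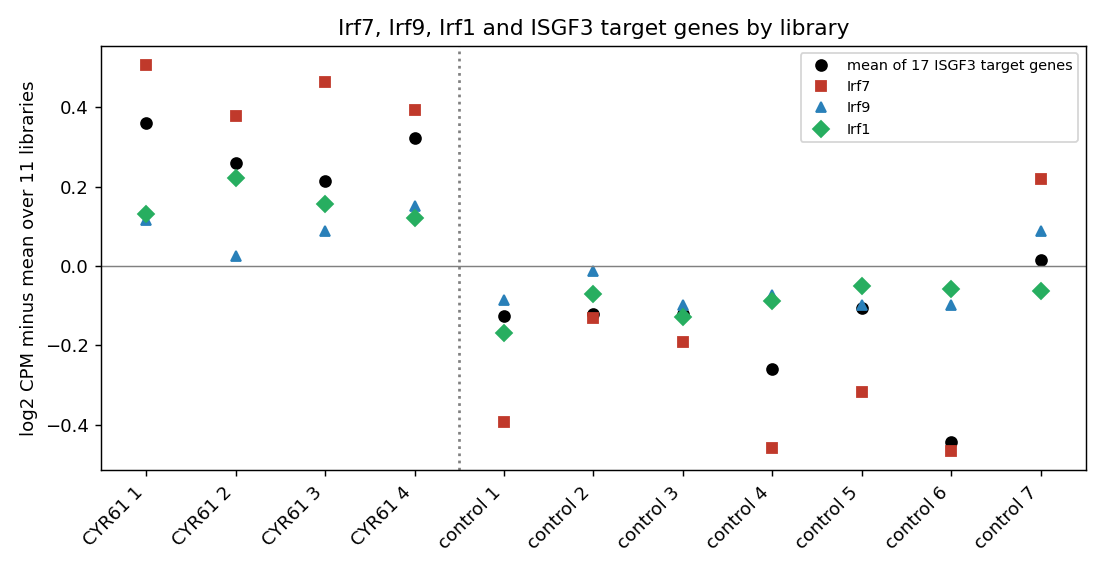
Log2 CPM minus the mean over the 11 libraries for Irf7, Irf9 and Irf1 and for the mean of 17 ISGF3 target genes, by library, CYR61 left of the dotted line and control right of it. The CYR61 libraries lie above 0 for all 4 measures, and control replicate 7 lies above 0 for Irf7, Irf9 and the ISGF3 target genes and below 0 for Irf1.

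With 5.33% of all genes tested called higher, 15 of 17 genes taken as ISGF3 targets rose, 0 fell and 2 did not pass. The list was chosen with earlier results of these data known, so this contrast is descriptive and not a test. Their median log2 fold change was 0.40. DESeq2 called 16 higher and 0 lower and limma-voom 15 and 0, and none was lower at an unadjusted p under 0.05. The members of lowest p were Zbp1, a nucleic acid sensor, at 41.7 ± 3.67 CPM in CYR61 and 21.2 ± 3.02 CPM in control, Ifit2, an antiviral RNA-binding protein, at 74.9 ± 7.57 CPM in CYR61 and 50.8 ± 4.96 CPM in control, and Ddx58, which encodes the RNA sensor RIG-I, at 125 ± 6.92 CPM in CYR61 and 99.8 ± 6.35 CPM in control. Averaged over the 17 genes, the centred log2 CPM was 0.21 to 0.36 in CYR61 libraries and -0.44 to 0.016 in control libraries. The highest control was replicate 7, and the lowest, replicate 6, was also the lowest for Irf7. Control replicate 7 was the highest control for 11 of the 17 genes (64.7%), against 18.4% of all genes tested, and its median distance above the mean of the other controls was 0.18 on the log2 scale, against 0.0073 over all genes tested. For Irf7 that distance was 0.55, for Irf9 0.17 and for Irf1 0.031. What sets control replicate 7 apart was not tested.

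The lists below are to be read beside the 5.33% of all genes tested that were called higher. They too were chosen with earlier results of these data known, so their counts are descriptive. Among the steps before ISGF3, 3 of 9 interferon receptor and JAK-STAT genes rose and 0 fell. They included Stat2, a subunit of ISGF3 (190 ± 18.9 CPM in CYR61 and 147 ± 13.1 CPM in control), and Ifnar1, a subunit of the type I interferon receptor (123 ± 4.25 CPM in CYR61 and 112 ± 5.35 CPM in control). DESeq2 and limma-voom called the same numbers. The call of Ifnar1 was lost in 9 of 20 alternatives, scaling by library size alone among them. Of the genes that act upstream of IRF3, IRF5 and IRF7, 7 of 21 rose and 0 fell, and 4 rose without CYR61 replicate 2. DESeq2 and limma-voom called 7 higher and 0 lower. In 5 alternatives 1 gene of the list was called lower: with library size alone, a mean of at least 1 CPM, replicates 1 to 4 with and without the block, and without control replicate 1. Traf6, named after its value was seen, was the 1 gene of that list lower at an unadjusted p under 0.05. The members of lowest p were Myd88, the Toll-like receptor adaptor, at 75.6 ± 2.60 CPM in CYR61 and 62.5 ± 2.48 CPM in control, Ikbke, a kinase of IRF3 and IRF7, at 113 ± 7.22 CPM in CYR61 and 93.9 ± 3.15 CPM in control, and Ddx58, above. The related kinase gene Tbk1, chosen after its value was seen, had a log2 fold change of 0.016 (edgeR, Benjamini-Hochberg adjusted p = 0.793). None of 11 interferon genes was expressed enough to be tested. Ifnb1 had at most 3 counts in a CYR61 library and 2 in a control library, at or under the floor of 3 counts, and Ifnk at most 8 counts in CYR61 and 13 in control.

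Of 11 tested genes of DNA-binding partners, 3 rose and 0 fell by edgeR and limma-voom, and DESeq2 called 3 higher and 1 lower (Ets1, named after its value was seen, also the 1 gene lower at an unadjusted p under 0.05 by edgeR). Over all genes tested, edgeR called 5.33% higher. The genes that rose included Stat2, above, and Cebpb, a myeloid transcription factor, at 181 ± 22.2 CPM in CYR61 and 153 ± 5.03 CPM in control. The log2 fold change of Cebpb was 0.24, and 0.16 without CYR61 replicate 1, and its call was lost with replicates 1 to 4 without the block (edgeR, Benjamini-Hochberg adjusted p = 0.0514). In the partner list 1 gene was also called lower with library size alone, without a filter, and without CYR61 replicate 2 or control replicate 1 or 4. Of 11 genes listed under IRF2-binding proteins and other inhibitors, 4 rose and 0 fell, also by DESeq2 and limma-voom. They included Socs3, an inhibitor of cytokine signalling, at 15.0 ± 3.03 CPM in CYR61 and 5.30 ± 0.573 CPM in control, Irf2bpl, which encodes a relative of the IRF2-binding proteins, at 78.9 ± 9.08 CPM in CYR61 and 64.3 ± 1.80 CPM in control, and Isg15, above. Isg15 was also counted among the ISGF3 targets, and whether it inhibits any IRF protein was not tested. None of these 11 genes, and none of the 9 receptor and JAK-STAT genes, was lower at an unadjusted p under 0.05, and DESeq2 and limma-voom called 0 lower in each.

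Of 13 tested genes known as IRF1 targets, 8 rose and 0 fell, with a median log2 fold change of 0.25, also by DESeq2 and limma-voom, and 5 rose without CYR61 replicate 3. The share of all genes tested that edgeR called higher was 5.33%, and the list was chosen with earlier results of these data known. The members of lowest p were Gbp2, a guanylate-binding protein (21.1 ± 2.17 CPM in CYR61 and 10.3 ± 1.51 CPM in control), Psmb8, an immunoproteasome subunit (107 ± 0.722 CPM in CYR61 and 89.4 ± 5.60 CPM in control), and Nlrc5, a transactivator of MHC class I genes (128 ± 10.4 CPM in CYR61 and 108 ± 6.06 CPM in control). Of 7 tested genes linked to IRF8, 2 rose and 0 fell: Cybb, an NADPH oxidase subunit (1197 ± 58.8 CPM in CYR61 and 1045 ± 75.7 CPM in control), and Ctss, a lysosomal protease (4102 ± 70.8 CPM in CYR61 and 3845 ± 75.8 CPM in control). Il18, an inflammatory cytokine, was at 3.99 ± 0.459 CPM in CYR61 and 3.33 ± 0.339 CPM in control (edgeR, Benjamini-Hochberg adjusted p = 0.218). The count of 2 was 0 with scaling by library size alone, without CYR61 replicate 2 or 3, and with replicates 1 to 4 alone. It was 1 without CYR61 replicate 4 or control replicate 3, 5 or 6, without a filter, and with the replicate number as a block. The count differed from 2 in 11 of 20 alternatives, not all of which are listed here. Of 7 cytokine genes linked to IRF5 only 2 could be tested: Ccl5 rose (9.54 ± 1.63 CPM in CYR61 and 2.70 ± 0.537 CPM in control), and Tnf was at 11.1 ± 2.02 CPM in CYR61 and 10.9 ± 1.22 CPM in control (edgeR, Benjamini-Hochberg adjusted p = 0.933). The count called higher was 2 in 3 alternatives, among them without CYR61 replicate 4 and without a filter. Tnf did not pass in these (edgeR, Benjamini-Hochberg adjusted p = 0.644 and 0.902). The added gene there was therefore one left untested in the main fit. The untested 5 had at most 16 counts in a library. Of 8 alternative activation genes linked to IRF4, 2 could be tested. Mrc1, the mannose receptor, rose (337 ± 56.2 CPM in CYR61 and 262 ± 35.7 CPM in control), a call lost by DESeq2, with scaling by library size alone and without CYR61 replicate 2 or 3 or control replicate 2, 3 or 4. Kdm6b, a histone demethylase, was at 7.16 ± 1.73 CPM in CYR61 and 7.30 ± 0.707 CPM in control (edgeR, Benjamini-Hochberg adjusted p = 0.925). No tested gene of these 3 target lists of IRF8, IRF5 and IRF4, nor of the IRF1 list, was lower at an unadjusted p under 0.05, and DESeq2 and limma-voom called 0 lower in each.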

How the data were processed

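RNA was sequenced from 4 CYR61 and 7 control libraries of bone marrow-derived macrophages; per the labels' protocols, ribosomal RNA was removed and cDNA was randomly primed and read in pairs. DRAGEN is named in the submitters' processing notes. Its role and version, and the build and annotation behind the counts, were not given in the sources used here. Estimated counts per gene, not normalized, were deposited by the authors, with a comparison table of log2 fold changes and intervals, p-values, scores and log2 CPM per library; how that table was fitted was likewise not stated. No per-sample column was left unmapped.

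Of 55774 rows, 287 repeats of a gene ID were dropped. The test used edgeR 4.0.16 under R 4.3.3 on rounded counts (filterByExpr, TMM, glmQLFit, glmQLFTest) over all 11 libraries without covariates. Standard errors were derived from the log2 fold change and the F statistic, and 95% intervals from them with the normal quantile. With so few libraries these intervals are approximate and somewhat narrower than the F test implies. Ratios used a prior count of 0.5. Gene lengths and overlaps came from GENCODE M21, which may differ from the annotation the authors used. Alternatives were DESeq2 1.42.0, limma-voom (limma 3.58.1), RLE factors, library size alone, a filter of 1 CPM on the mean or none at all, replicates 1 to 4 with and without the replicate number as a block, and leaving out each library; leaving out control replicate 7 and CYR61 replicate 4 together was chosen after seeing the data. The fit was tested on simulated counts. Floors and counting limits cover counting error only.

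The members and lists were chosen with earlier results of these data known. All 8 members are named, up to 3 genes of lowest p with at least 1 CPM per list, and the 3 genes most like each called member with a fold of at least 1.2; any other named gene overlaps a member, marks a cell type, or was picked with its value in view. A few genes of the lists are not reported here by name.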

Additional observations from a re-analysis of the deposited data

Results flagged for a closer look

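Of 24 sets of values examined (8 members and 4 ratios in each group), 5 held a library far from the rest of its group; chance gives about 1 in 20. Irf7 in control replicate 7 was 129 CPM, with the next control at 101 CPM. The Irf7 to Irf3 ratio in that library was 3.24, with the next control at 2.50. Irf5 in CYR61 replicate 1 was 211 CPM, with the next CYR61 library at 185 CPM. The Irf8 to Irf4 ratio was 87.6 and the Irf5 to Irf4 ratio 65.8 in control replicate 1, with the next controls at 66.9 and 50.8. The ratio flags share members with each other and are not independent.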

How the results depend on the processing

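Over 20 alternatives Irf1 and Irf7 stayed past the threshold, and Irf9 was lost in 6. With each library left out in turn, 2 to 3 members and 788 to 1372 genes passed, 788 being the number of genes without CYR61 replicate 2. Leaving out control replicate 7 and CYR61 replicate 4 together left 3 members called. Replicate numbers showed no sign of pairing the libraries: deviations of same-numbered libraries correlated by -0.034 to 0.034, and 1 of 4 CYR61 libraries correlated best with its own number. Since the labels do not say whether same-numbered libraries share a mouse or culture, this does not settle whether the design was paired. With the replicate block on replicates 1 to 4, 3 members and 1261 genes passed, with 1267 genes without the block. Within-number differences of the log2 ratio were 0.31 for Irf1 to Irf2 and 0.73 for Irf7 to Irf3, with adjusted p = 0.25 in an exact permutation of signs, too small a design to pass. With a library left out, the log2 ratio difference ran from 0.17 to 0.29 for Irf8 to Irf4 and from 0.15 to 0.31 for Irf5 to Irf4. Signs turned only in genes that did not pass: Irf3 to -0.026 with library size alone (-0.0035 to 0.041 with a library left out), Irf5 to 0.0047 without a filter (-0.053 to 0.021), and Irf2 with a library left out (-0.029 to 0.017). Leaving out control replicate 7 and CYR61 replicate 4 together gave 0.0036 for Irf2, 0.0067 for Irf5 and 0.14 for Kdm6b. Tnf turned to -0.021 with library size alone (-0.097 to 0.11 with a library left out), and Kdm6b to 0.010 with the replicate block and 0.023 without it (-0.15 to 0.11). The causes were not tested. Irf4, with 44 to 92 counts in a library, had a log2 fold change of -0.32 without control replicate 1 (edgeR adjusted p = 0.115).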
